A study of Mus musculus with 9 samples.

Results

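The genes described here encode the actins and troponins of the striated muscle thin filament and the giant ruler protein nebulin. They were found by symbol, and all 10 were present among the 47729 genes listed: Acta1 and Neb, which every skeletal fibre type uses (pan-skeletal), Actc1 and Tnnt2, the forms of heart and of fetal or newly forming skeletal muscle (fetal or cardiac), Tnnt1, Tnni1 and Tnnc1, the slow fibre forms, and Tnnt3, Tnni2 and Tnnc2, the fast fibre forms. RNA came from cultured skeletal muscle myoblasts of the inbred mouse strain FVB/N, in 3 populations with 3 libraries each: SRCs of cycle 3 (SRC3), FRCs of cycle 1 (FRC1) and the parental cells (PAR). SRC3 and FRC1 are reserve cell populations, and per the labels such populations went through 2 passages under proliferation conditions between isolation and harvest. All RNA had an integrity number of 10. The abbreviations FRC and SRC are not spelled out in the labels, and the sources used here do not give the age and sex of the mice, any genetic change or the number of lines behind each population. Nothing says that the libraries of a population came from separate cultures, so the spread between libraries, which p-values measure, may be technical.

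In a sarcomere, actin filaments are regulated by the troponin complex. Troponin C binds calcium, troponin I holds actin and myosin apart at rest, and troponin T anchors the complex to tropomyosin along the filament. Dividing myoblasts transcribe these genes weakly, and their induction belongs to terminal differentiation into myotubes, in which fetal or cardiac forms come early and slow or fast forms are sorted out later in fibres.

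Libraries held 13012996 to 14336279 gene counts, and levels are given as CPM, the counts of a gene scaled to a common library size with TMM factors, on which 3 counts correspond to 0.209 to 0.231 CPM. Of 9 myoblast markers 8 had enough counts to test, while Chrdl2 had 2 counts in SRC3, 1 in FRC1 and 2 in PAR. At an adjusted p under 0.05 in edgeR, 1 of the 8 rose and 4 fell in FRC1 against PAR. In SRC3 against PAR 1 rose and 6 fell, and in SRC3 against FRC1 0 rose and 4 fell. The list summed to 1860 to 2030 CPM in SRC3, 2340 to 2480 CPM in FRC1 and 2610 to 2650 CPM in PAR. Every pair of replicates differed by more than sampling noise. In bulk RNA, fewer cells of a type and less RNA per cell cannot be told apart.

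The stretches of 250 bases before the RefSeq start of 4 members are printed here because these 4 had the highest levels per kilobase of exon in FRC1 (given further on). They are taken from RefSeq on build GRCm38.p6 and read 5′ to 3′ on the strand of the gene, and capitals mark a CArG box, the binding sequence of serum response factor, or an MCAT element (CATTCC on either strand), the binding sequence of TEAD factors. The windows are chr8:123894776-123895025 (minus strand) for Acta1, chr2:114052876-114053125 (minus) for Actc1, chr1:135836084-135836333 (plus) for Tnnt2 and chr14:31208062-31208311 (plus) for Tnnc1.
Acta1: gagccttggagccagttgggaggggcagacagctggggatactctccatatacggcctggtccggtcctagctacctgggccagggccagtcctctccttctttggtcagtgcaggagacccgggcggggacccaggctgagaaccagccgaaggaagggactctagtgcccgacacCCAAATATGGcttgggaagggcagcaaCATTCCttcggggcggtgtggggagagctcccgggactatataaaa
Actc1: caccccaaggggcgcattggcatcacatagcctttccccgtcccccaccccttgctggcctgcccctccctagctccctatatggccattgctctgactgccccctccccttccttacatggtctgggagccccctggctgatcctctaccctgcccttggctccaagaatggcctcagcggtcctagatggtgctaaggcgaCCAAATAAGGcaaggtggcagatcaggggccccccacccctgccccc
Tnnt2: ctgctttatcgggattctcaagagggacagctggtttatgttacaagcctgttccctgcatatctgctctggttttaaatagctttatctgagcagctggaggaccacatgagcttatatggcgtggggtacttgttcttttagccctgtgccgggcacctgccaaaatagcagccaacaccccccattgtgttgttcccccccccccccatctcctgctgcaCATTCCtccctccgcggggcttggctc
Tnnc1: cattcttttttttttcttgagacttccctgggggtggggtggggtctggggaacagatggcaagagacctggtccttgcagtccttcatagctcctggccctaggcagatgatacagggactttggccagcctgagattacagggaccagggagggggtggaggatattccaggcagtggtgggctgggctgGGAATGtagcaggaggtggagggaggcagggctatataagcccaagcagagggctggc

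In these windows the CArG box ended 63 bases before the RefSeq start of Acta1 and 37 bases before that of Actc1. The MCAT element lay 40 bases before the start in Acta1, 21 bases in Tnnt2 and 52 bases, on the reverse strand, in Tnnc1. Of the 10 members, 7 had a promoter entry, with 9 windows between them. The windows of Tnni1 overlap each other, and the Tnnt2 window at chr1:135836739-135836988 lies wholly within annotated exons. The 9 windows are therefore not separate promoters. A CArG box was present in 2 of the 7 members (2 of their 9 windows) and in 1.47% of all 32817 windows in the RefSeq table. The MCAT element was present in 3 members (3 of 9 windows) and 12.6% of all windows. The E-box CANNTG, the binding sequence of myogenic factors such as MyoD, was present in 6 of the 7 members (8 of 9 windows) and 66.2% of all windows. TATAAA on either strand was present in 2 members (2 of 9 windows) and 12.4% of all windows. The MEF2 site was present in 0 members (0 of 9 windows) and 2.92% of all windows. These matches describe the letters in the windows only.

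All 10 members rose in FRC1 relative to PAR, by 2.18-fold for Neb to 25.8-fold for Acta1 among the 9 with more than 3 counts in PAR, and all 3 FRC1 libraries lay above all 3 PAR libraries for each of them. A call means an adjusted p under 0.05 in the quasi-likelihood test of edgeR, with Benjamini-Hochberg adjustment over 12540 genes. In this comparison 13.6% of all tested genes were called higher, 1.3% with at least a 2-fold rise as all 10 members had, and 14.7% lower, and 21.8% had all FRC1 libraries above all PAR libraries. The members' median log2 fold change was 3.32, against 0.003 over all tested genes. By class the medians were 2.91 for the pan-skeletal genes, 2.74 for the fetal or cardiac genes, 3.66 for the slow genes and 2.21 for the fast genes. The fast genes ran from 1.27 to 5.6, where the highest value of all 10 members, that of Tnnc2, rests on 3 PAR counts in all.

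SRC3 against PAR divided the members. Acta1, Actc1, Tnnt2, Tnni1, Tnnc1 and Tnnc2 were called higher, while Neb, Tnnt1, Tnnt3 and Tnni2 were not called and their libraries overlapped. Of all tested genes 17.8% were called higher, 2.93% with at least a 2-fold rise as the 6 called members had, and 20.2% lower, and 23.7% had all SRC3 libraries above all PAR libraries, as the 6 called members had. The median log2 fold change was 1.23 over the 10 members and 0.006 over all tested genes. It was 1.32 for the 2 fetal or cardiac genes, 1.25 for the 3 slow genes, 1.02 for the 2 pan-skeletal genes and 0.13 for the 3 fast genes. The fast genes ran from -0.09 to 2.72. That highest value of all 10 members was that of Tnnc2 and rests on 3 PAR counts in all. Both comparisons use the same PAR libraries.

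SRC3 was also set directly against FRC1, and 9 of the 10 members fell, all but Tnnt2. Of all tested genes 15.5% were called higher and 18% lower, and 22.9% had all SRC3 libraries below all FRC1 libraries, as the 9 called members had. The median log2 fold change was -2.3 over the 10 members and 0 over all tested genes. All 10 members passed the filter on low counts, but Tnnt1 and Tnnc2 passed only through their FRC1 libraries, so for these 2 a difference from FRC1 was built into being tested.

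**Figure D1:**
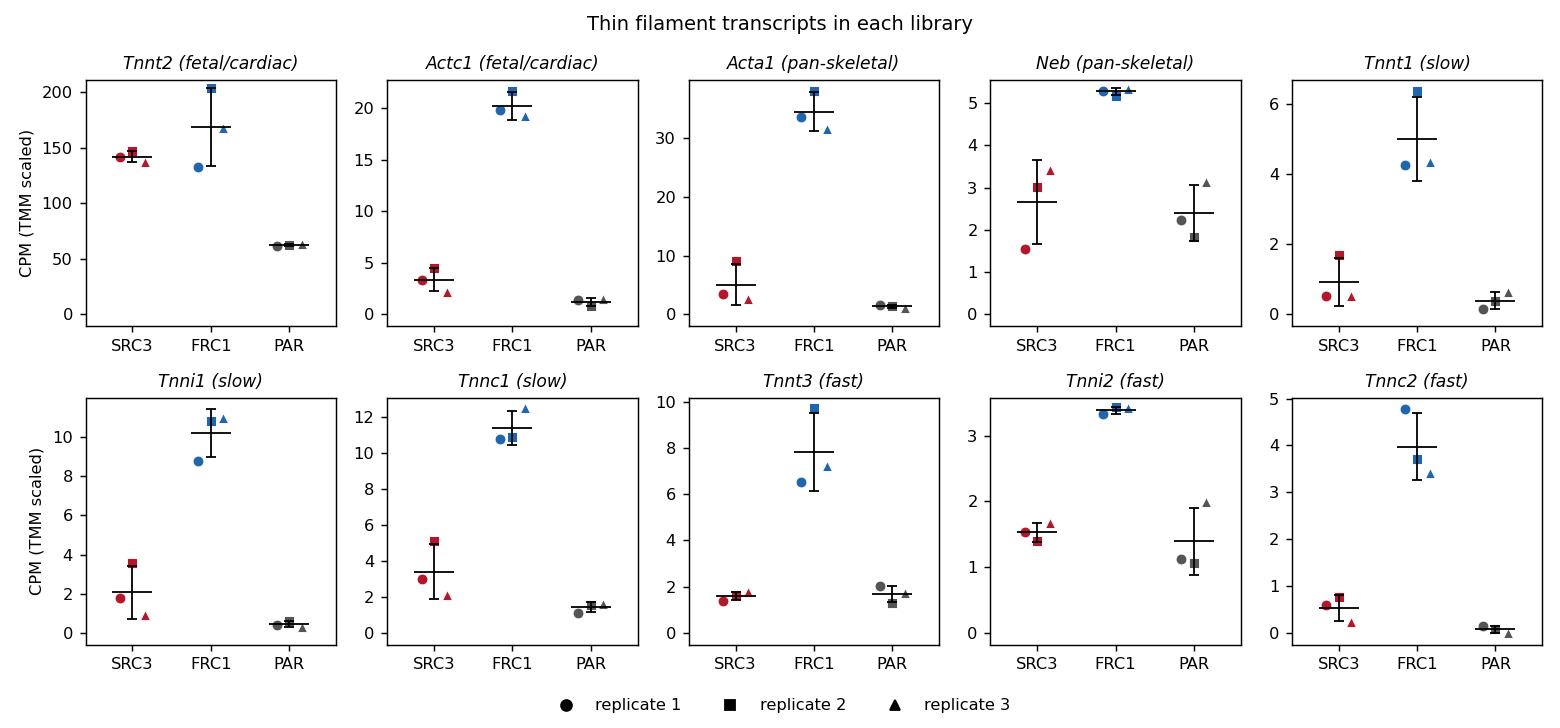
CPM of each of the 10 genes (one panel each, linear axes that differ between panels) in the 3 libraries of SRC3, FRC1 and PAR, with the mean and SD as bars and the replicate number as the marker shape. FRC1 stands above PAR in each panel, SRC3 lies near PAR for Neb, Tnnt3 and Tnni2, and Tnnt2 alone has SRC3 within the FRC1 range, at 137 to 147 CPM.

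Acta1, the main actin of adult skeletal fibres, had 3.45, 9.02 and 2.66 CPM in the SRC3 libraries, 33.6, 38.1 and 31.6 CPM in FRC1, and 1.54, 1.45 and 0.995 CPM in PAR. The 3 populations did not overlap, and SRC3 replicate 2 stood apart from the other two SRC3 libraries at 2.96 times their mean. The log2 fold change was 4.69 ± 0.41 (SE) in FRC1 against PAR (adjusted p = 0.00013) and -2.78 ± 0.33 in SRC3 against FRC1 (adjusted p = 0.00036). In SRC3 against PAR it was 1.91 ± 0.56 with an adjusted p of 0.03 in edgeR, a call close to the threshold: it was lost without PAR replicate 1, 2 or 3 (adjusted p of 0.071, 0.082 and 0.097), without FRC1 replicate 1 (0.051) and with no filter on low counts (0.078), over a range of 0.00075 to 0.097 in the alternatives. Without SRC3 replicate 2 the log2 fold change against PAR was 1.21 (adjusted p = 0.00075) and that against FRC1 was -3.48.

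Actc1, the actin of the heart and of developing skeletal muscle, had 3.37, 4.47 and 2.2 CPM in SRC3, 19.8, 21.7 and 19.2 CPM in FRC1, and 1.4, 0.766 and 1.49 CPM in PAR. Here too no libraries of different populations overlapped, and the FRC1 libraries lay close together. Actc1 was 16.3-fold higher in FRC1 than in PAR (log2 4.03 ± 0.2, adjusted p = 2e-10) and 2.71-fold higher in SRC3 than in PAR (log2 1.44 ± 0.27, adjusted p = 0.00035). It was 6.03-fold lower in SRC3 than in FRC1 (adjusted p = 4.4e-10 in edgeR). Its longest coding transcript shared 0 of 1424 windows of 50 bases, the length of a read, exactly with transcripts of other genes. That of Acta1 shared 31 of 1397, so these 2 actins had no such exact window in common. How reads with mismatches were assigned was not tested.

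Tnnt2, the cardiac and fetal troponin T, was the most abundant member in counts in all 9 libraries. It had 142, 147 and 137 CPM in SRC3, 133, 204 and 168 CPM in FRC1, and 61.7, 62.1 and 63 CPM in PAR. The PAR libraries were nearly equal, the SRC3 libraries lay within the range of the FRC1 libraries, and both populations lay wholly above PAR. Tnnt2 was 2.71-fold higher in FRC1 than in PAR (log2 1.44 ± 0.13, adjusted p = 9.1e-05) and 2.28-fold higher in SRC3 than in PAR (log2 1.19 ± 0.14, adjusted p = 0.00014). SRC3 against FRC1 gave a log2 fold change of -0.25 ± 0.13 with a 95% interval of -0.56 to 0.06 (adjusted p = 0.17 in edgeR). The absence of a call depended on FRC1 replicate 1, the lowest of its population. Without that library the log2 fold change was -0.39 and was called (adjusted p = 0.0001), over a range of 0.0001 to 0.46 in the alternatives.

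Tnnt1, the slow troponin T, had 0.513, 1.7 and 0.532 CPM in SRC3, 4.24, 6.37 and 4.35 CPM in FRC1, and 0.14, 0.383 and 0.64 CPM in PAR. These PAR values rest on 2, 5 and 9 counts, and SRC3 replicates 1 and 3 lay within the PAR range while replicate 2 stood above it. Tnnt1 was 12.7-fold higher in FRC1 than in PAR (log2 3.66 ± 0.42, adjusted p = 8.9e-06) and 5.47-fold lower in SRC3 than in FRC1 (adjusted p = 4.5e-05), with a log2 fold change of -2.45 that became -3.23 without SRC3 replicate 2. For SRC3 against PAR the log2 fold change was 1.21 with a 95% interval of -0.22 to 2.64 (adjusted p = 0.11 in edgeR). Without SRC3 replicate 2 it was 0.43 (adjusted p = 0.61). With no filter on low counts it passed the threshold (adjusted p = 0.033), and its adjusted p ran over 0.033 to 0.61 in the alternatives.

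Tnnt3, the fast troponin T, had 1.39, 1.62 and 1.75 CPM in SRC3, 6.52, 9.73 and 7.2 CPM in FRC1, and 2.03, 1.3 and 1.71 CPM in PAR. SRC3 and PAR covered nearly the same range, and FRC1 stood above both. Tnnt3 was 4.62-fold higher in FRC1 than in PAR (log2 2.21 ± 0.21, adjusted p = 2.9e-07) and 4.92-fold lower in SRC3 than in FRC1 (adjusted p = 5.4e-08). Against PAR, SRC3 gave a log2 fold change of -0.09 with a 95% interval of -0.77 to 0.59 (adjusted p = 0.83 in edgeR).

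Tnni1, the slow and developmentally early troponin I, had 1.76, 3.55 and 0.912 CPM in SRC3, 8.79, 10.8 and 11 CPM in FRC1, and 0.42, 0.613 and 0.284 CPM in PAR. The PAR values rest on 6, 8 and 4 counts, no populations overlapped, and SRC3 spread most, with replicate 2 at 2.66 times the mean of the other two. Tnni1 was 23-fold higher in FRC1 than in PAR (log2 4.53 ± 0.37, adjusted p = 8.8e-07) and 4.67-fold higher in SRC3 than in PAR (log2 2.22 ± 0.5, adjusted p = 0.0027). It was 4.93-fold lower in SRC3 than in FRC1 (log2 -2.3 ± 0.28, adjusted p = 1.3e-05 in edgeR). Without SRC3 replicate 2 the log2 fold change was 1.61 against PAR (adjusted p = 0.0051) and -2.91 against FRC1.

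Tnni2, the fast troponin I, had 1.54, 1.39 and 1.67 CPM in SRC3, 3.33, 3.43 and 3.42 CPM in FRC1, and 1.12, 1.07 and 1.99 CPM in PAR. The FRC1 libraries were almost identical, and the SRC3 libraries lay within the PAR range. Tnni2 was 2.42-fold higher in FRC1 than in PAR (log2 1.27 ± 0.24, adjusted p = 0.0006) and 2.21-fold lower in SRC3 than in FRC1 (adjusted p = 0.00095). SRC3 did not reach the threshold against PAR, at a log2 fold change of 0.13 with a 95% interval of -0.56 to 0.82 (adjusted p = 0.74 in edgeR).

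Tnnc1, the troponin C of heart and slow fibres, had 3.01, 5.09 and 2.13 CPM in SRC3, 10.8, 10.9 and 12.5 CPM in FRC1, and 1.12, 1.53 and 1.63 CPM in PAR. The populations did not overlap, and SRC3 lay between FRC1 and PAR. Tnnc1 was 7.95-fold higher in FRC1 than in PAR (log2 2.99 ± 0.24, adjusted p = 1.2e-07) and 2.38-fold higher in SRC3 than in PAR (log2 1.25 ± 0.29, adjusted p = 0.0023). It was 3.34-fold lower in SRC3 than in FRC1 (adjusted p = 2.3e-06 in edgeR).

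Tnnc2, the fast troponin C, had 0.587, 0.771 and 0.228 CPM in SRC3, 4.77, 3.71 and 3.42 CPM in FRC1, and 0.14, 0.0766 and 0 CPM in PAR. In counts these are 8, 10 and 3 in SRC3, 63, 53 and 48 in FRC1, and 2, 1 and 0 in PAR, so PAR was at or under 3 counts throughout. Scaled to depth, the ratio of summed counts was 54.9 in FRC1 over PAR (95% interval of 18.4 to 269) and 7.34 in SRC3 over PAR (2.19 to 38.4), where the intervals cover counting error only. Without PAR replicate 1 the ratios were 108 (19.1 to 4290) and 14.4 (2.32 to 597), and without PAR replicate 3 they were 36.2 and 4.85. Both differences were called (adjusted p of 1.2e-07 and 0.0072 in edgeR), and Tnnc2 was 7.38-fold lower in SRC3 than in FRC1 (adjusted p = 9.2e-07).

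Of the exon bases of Tnnc2, 74% lie within exons of Ube2c on the opposite strand, a gene of the cell cycle with 7201 counts in SRC3, 8463 in FRC1 and 8043 in PAR. The sources used here do not give the strand setting of the counting. By the exons of GENCODE M21, 427 genes have all their exon bases within opposite-strand exons. Of these, 44 had at least 10 counts over the 9 libraries in the same files. Such counts would be ambiguous without strand if the counting used these exons, which was not tested. Tnnc1 overlaps the opposite-strand gene Nisch, but in 0 exon bases.

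Neb, whose protein runs along the thin filament and sets its length, had 1.54, 3.01 and 3.42 CPM in SRC3, 5.3, 5.18 and 5.35 CPM in FRC1, and 2.24, 1.84 and 3.13 CPM in PAR. SRC3 and PAR overlapped, with SRC3 replicate 1 the lowest of all 9 libraries, and FRC1 stood above both with almost no spread. Neb was 2.18-fold higher in FRC1 than in PAR (log2 1.13 ± 0.23, adjusted p = 0.0012) and 1.99-fold lower in SRC3 than in FRC1 (adjusted p = 0.0021). Set against PAR, SRC3 had a log2 fold change of 0.13 with a 95% interval of -0.51 to 0.77 (adjusted p = 0.72 in edgeR).

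**Figure D2:**
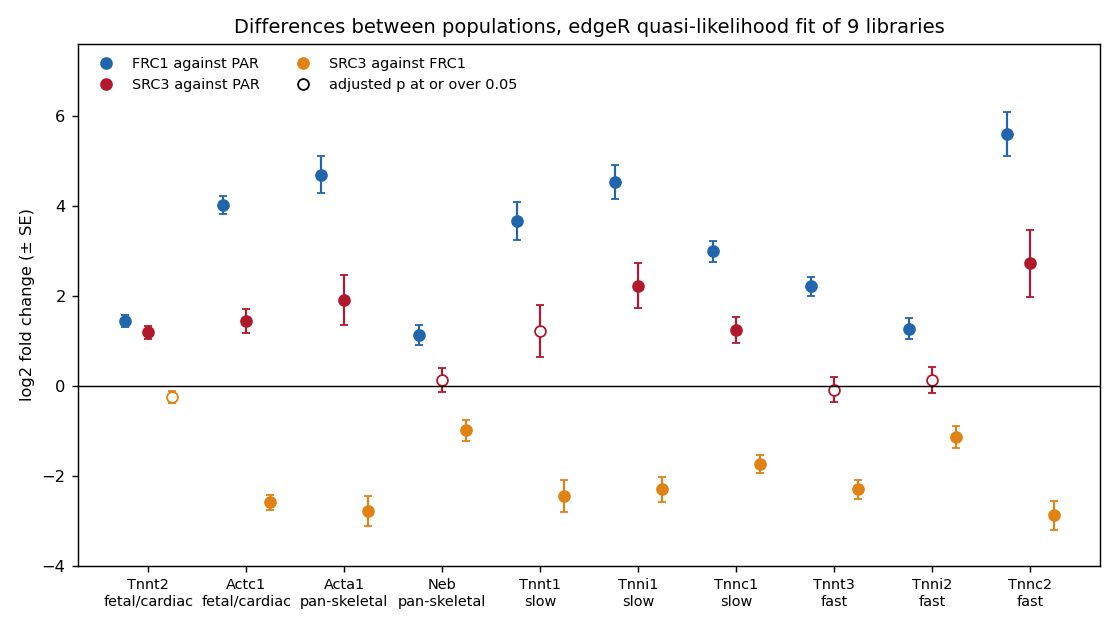
Fitted log2 fold changes with their SE for the 10 genes in FRC1 against PAR (blue), SRC3 against PAR (red) and SRC3 against FRC1 (orange), with open circles for adjusted p at or over 0.05. All FRC1 values lie above 0, 4 SRC3 values against PAR and Tnnt2 in SRC3 against FRC1 are open, and the values of Tnnc2 against PAR rest on 3 PAR counts in all.

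The summed level of the 10 genes was 163 ± 12.9 CPM in SRC3, 270 ± 41.8 CPM in FRC1 and 72.6 ± 1.99 CPM in PAR (SD, n = 3 each). Most of it was Tnnt2. Without Tnnt2 the other 9 genes summed to 17.2, 30.6 and 15.5 CPM in SRC3, 97.2, 110 and 98.1 CPM in FRC1, and 10.2, 9.04 and 11.9 CPM in PAR. The SRC3 libraries thus differed among themselves: replicate 2 was the highest for 7 of the 10 members and replicate 3 for the other 3. Replicate 2 over the mean of the other two SRC3 libraries was 3.25 for Tnnt1, 2.96 for Acta1, 2.66 for Tnni1, 1.98 for Tnnc1, 1.89 for Tnnc2 and 1.6 for Actc1, but 1.05 for Tnnt2. The same library had the highest sum of the myotube and fibre markers in its population, at 60.9 CPM, with the other two at 45.3 and 46.1 CPM. The part of these markers in the members' levels was not tested.

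**Figure D3:**
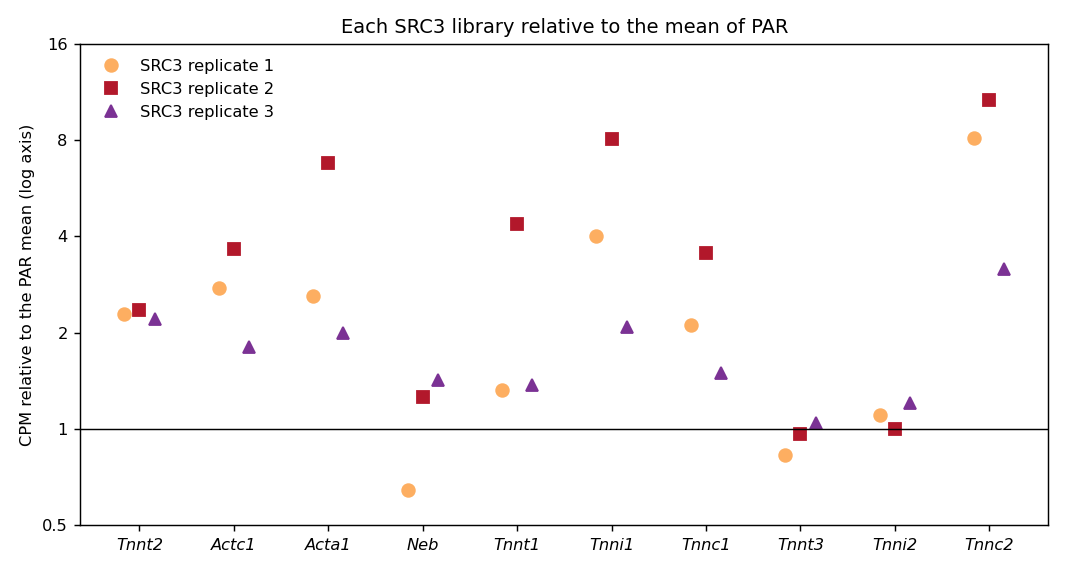
CPM of each SRC3 library divided by the mean of the 3 PAR libraries (log axis, 1 is the PAR mean) for the 10 genes. Replicate 2 (squares) is highest for 7 genes, the 3 libraries nearly coincide for Tnnt2, and Tnnt3 and Tnni2 lie around 1.

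Levels were ranked between genes per kilobase of exon, over the union of exons of all transcripts. The sums of CPM, the parts of genes in them and the place of Tnnt2 in counts are not scaled for gene length. In FRC1 Acta1 and Tnnt2 came first at 22.4 ± 2.14 and 21.8 ± 4.55 CPM per kilobase (SD, n = 3), with libraries that overlapped. Actc1 at 12.5 and Tnnc1 at 10.9 followed and overlapped each other, then Tnnc2 at 4.96 and Tnnt3 at 4.94, which also overlapped. Tnni1 at 2.83 CPM per kilobase lay below these and above Tnni2 at 2.27, which overlapped with Tnnt1 at 2.26, and Neb was last at 0.198.

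In SRC3 Tnnt2 led at 18.3 ± 0.633 CPM per kilobase, above Acta1 at 3.28, Tnnc1 at 3.27 and Actc1 at 2.07, each of which overlapped with the next. Next came Tnni2 at 1.02, Tnnt3 at 1, Tnnc2 at 0.661, Tnni1 at 0.576 and Tnnt1 at 0.415, a run of neighbours with overlapping libraries, and then Neb at 0.0999. In PAR Tnnt2 also led, at 8.04 ± 0.0861 CPM per kilobase. Tnnc1 at 1.37, Tnnt3 at 1.06, Tnni2 at 0.931, Acta1 at 0.866 and Actc1 at 0.754 formed one overlapping run. Tnnt1 at 0.176, Tnni1 at 0.122, Neb at 0.0904 and Tnnc2 at 0.0902 formed another.

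The order depends on the length used. The union of the exons of Tnnt2 is 7752 bases and its longest coding transcript 1200. Over the coding transcript, a length chosen after seeing the data, the level of Tnnt2 was 118 CPM per kilobase in SRC3, 141 in FRC1 and 51.9 in PAR. Acta1 on that scale was at 3.49 in SRC3, 23.8 in FRC1 and 0.92 in PAR, so that Tnnt2 led in all 3 populations. Tnni1, with an exon union of 3600 bases and a coding transcript of 1150, was then at 8.87 in FRC1, above Tnnt3 at 7.24 and Tnnc2 at 5.67. In FRC1 Tnnc1 at 15.8 then also stood above Actc1 at 13.7, and in SRC3 Tnnc1 at 4.73 above Acta1.

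Isoform shares within each troponin and actin family were computed from counts per kilobase of exon. Of troponin I, the fast gene Tnni2 made up 67.8, 48.5 and 81.5% in the SRC3 libraries, 47.7, 43.3 and 42.7% in FRC1, and 86.5, 80.8 and 94.4% in PAR, the rest being the slow Tnni1. FRC1 lay below both other populations, and SRC3 overlapped with PAR. Over the longest coding transcript the mean Tnni2 share was 55.7% in SRC3, 33.4% in FRC1 and 81.2% in PAR, and in raw counts 46.5% in SRC3, 25.1% in FRC1 and 74.6% in PAR. Of troponin C, the fast gene Tnnc2 made up 20.2, 16.5 and 12.2% in SRC3, 36.6, 30.7 and 26.3% in FRC1, and 14, 6.11 and 0% in PAR, where the PAR shares rest on 2, 1 and 0 counts of Tnnc2. FRC1 lay above both others. The fast share was thus lower in FRC1 than in PAR for troponin I, by 42.7 percentage points, and higher for troponin C, by 24.5 percentage points.

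Among the troponin T genes Tnnt2 made up 92.8 ± 1.46% in SRC3, 75.1 ± 1.56% in FRC1 and 86.7 ± 1.94% in PAR, and Tnnt3 made up 5.09 ± 0.651% in SRC3, 17.1 ± 0.847% in FRC1 and 11.4 ± 2.32% in PAR (SD, n = 3 each). For both shares no populations overlapped. Over the length of the longest coding transcript the mean share of Tnnt2 was 98.1% in SRC3, 92.2% in FRC1 and 96.4% in PAR, and that of Tnnt3 was 1.22% in SRC3, 4.76% in FRC1 and 2.89% in PAR. FRC1 then differed from PAR by 1.87 percentage points in the Tnnt3 share, against 5.64 over the exon union. Actc1 made up 41.4 ± 8.4% of the striated actin counts in SRC3, 35.8 ± 0.704% in FRC1 and 46.1 ± 12.7% in PAR, and the populations overlapped. In the exact two-sided permutation test over libraries, 3 against 3 cannot go below p = 0.1, and no share could pass the threshold. The lowest p of 0.1 was reached in 10 of the 15 tests, with an adjusted p of 0.15.

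**Figure D4:**
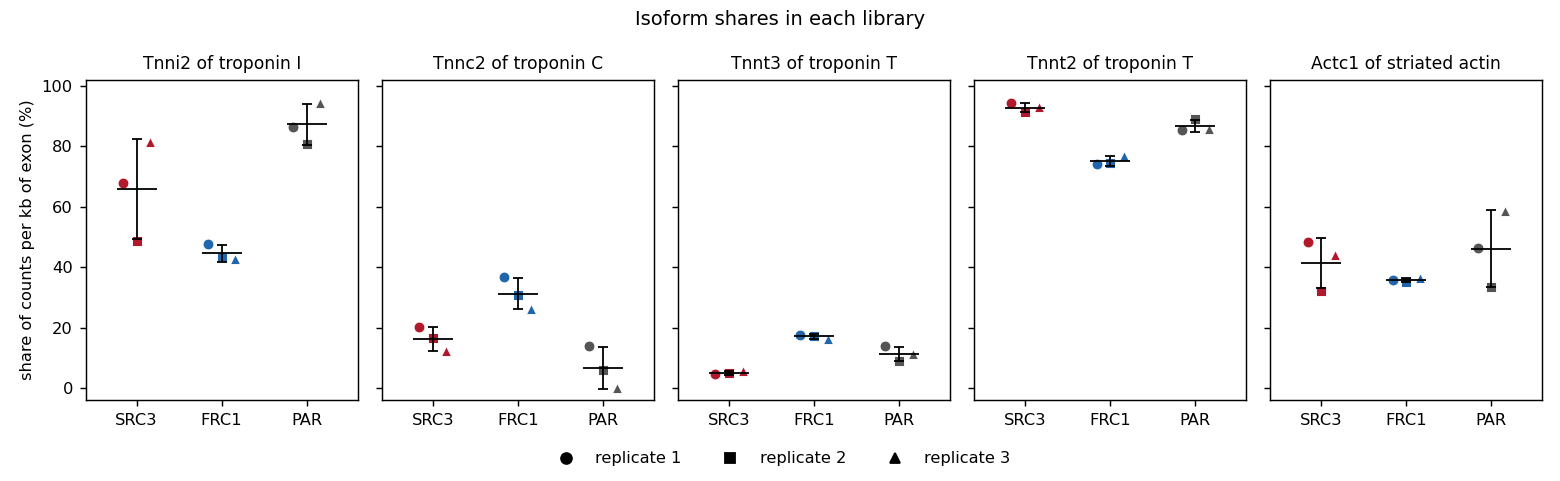
Share of each named gene among the counts per kilobase of its family (%) in the 3 libraries of SRC3, FRC1 and PAR, with mean and SD. Tnni2 is lowest and Tnnc2 and Tnnt3 highest in FRC1, Tnnt2 is highest in SRC3, and the Actc1 shares overlap.

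Of 20 other thin filament genes (tropomyosins, tropomodulins, leiomodins and their partners) 15 could be tested. In FRC1 against PAR 2 rose and 0 fell, with a median log2 fold change of 0.03. Klhl41, a kelch protein that stabilises nebulin, averaged 1.99 ± 0.397 CPM in FRC1 and 0.29 ± 0.0699 CPM in PAR (SD, n = 3 each), and Lmod3, a leiomodin that nucleates actin, 1.55 ± 0.648 and 0.266 ± 0.11 CPM in the same populations (adjusted p of 1.4e-05 and 0.00059). Klhl41 and Lmod3 passed the filter on low counts only through their FRC1 libraries, so a difference from FRC1 was built into being tested. The tropomyosin genes Tpm1, Tpm2, Tpm3 and Tpm4, with FRC1 levels of 361 to 1090 CPM, were not called, with log2 fold changes of -0.09 to 0.03.

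In SRC3 against PAR 2 of these 15 genes rose and 6 fell, with a median of 0.02. Nebl, the nebulin relative nebulette, averaged 0.551 ± 0.146 CPM in SRC3 and 4.21 ± 0.543 CPM in PAR, and Xirp1, an actin-binding repeat protein, 29.4 ± 2.68 CPM in SRC3 and 5.12 ± 2.03 CPM in PAR (adjusted p of 1.1e-07 and 0.00058). Tmod2, a tropomodulin that caps actin filaments, was 4.41-fold lower in SRC3 than in PAR and Tpm2 1.42-fold lower (adjusted p of 0.0002 and 6.2e-05). In SRC3 against FRC1 2 rose and 9 fell, with a median of -0.28.

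Of the 4 other actin genes, those of smooth muscle and of the cytoskeleton, 0 rose in SRC3. Acta2, the smooth muscle actin, averaged 8.59 ± 5.29 CPM in SRC3, 199 ± 30.4 CPM in FRC1 and 67.2 ± 5.64 CPM in PAR (SD, n = 3 each). It rose 2.97-fold in FRC1 against PAR (adjusted p = 0.0046) and was 7.83-fold lower in SRC3 than in PAR (adjusted p = 0.00067 in edgeR). Actb, the main cytoplasmic actin, had 4560 CPM in SRC3, 5580 CPM in FRC1 and 5470 CPM in PAR, and was 1.2-fold lower in SRC3 than in PAR (adjusted p = 0.00071) and not called in FRC1 against PAR. Of the 4 genes, 1 rose and 0 fell in FRC1 against PAR, 3 fell in SRC3 against PAR, and all 4 fell in SRC3 against FRC1.

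Of 18 transcriptional regulators of striated muscle genes 14 could be tested, and in FRC1 against PAR 4 rose and 5 fell (median log2 fold change of -0.07). SRC3 had 5 higher and 5 lower than PAR (median 0.01), and 4 higher and 6 lower than FRC1 (median -0.07). Myog, the factor myogenin that starts terminal differentiation, averaged 1.61 ± 0.563 CPM in SRC3, 8.97 ± 1.58 CPM in FRC1 and 0.574 ± 0.194 CPM in PAR. Mef2c, which acts with myogenic factors, averaged 3.94 ± 1.53 CPM in SRC3, 6.64 ± 0.433 CPM in FRC1 and 0.501 ± 0.241 CPM in PAR. Both were called higher in each reserve population against PAR and lower in SRC3 against FRC1.

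Smyd1, a muscle methyltransferase needed for myofibril assembly, had 6.44 ± 0.977 CPM in SRC3, 3.8 ± 0.46 CPM in FRC1 and 1.98 ± 0.106 CPM in PAR, so that its highest level was in SRC3, where it was 1.69-fold higher than in FRC1 (adjusted p = 0.0014 in edgeR). Mef2a, of the same family as Mef2c, averaged 193 CPM in SRC3, 125 CPM in FRC1 and 193 CPM in PAR, and was 1.54-fold lower in FRC1 than in PAR (adjusted p = 2.8e-05). Myod1, the myoblast determination factor, had 540 ± 18.8 CPM in SRC3, 771 ± 15.9 CPM in FRC1 and 776 ± 15.1 CPM in PAR. Srf, which binds CArG boxes, had 97.5 CPM in SRC3, 125 CPM in FRC1 and 91.2 CPM in PAR (log2 0.46 in FRC1 against PAR, adjusted p = 0.00032).

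The summed level of markers of differentiated cells was highest in FRC1, and SRC3 overlapped with PAR. In SRC3 and PAR most of this sum was Ttn and Ryr1. The 13 myotube and fibre markers summed to 45.3 to 60.9 CPM in SRC3, 95.9 to 114 CPM in FRC1 and 52.9 to 67.8 CPM in PAR, with Ckm at 0 in SRC3. Of the 10 tested, 7 rose and 1 fell in FRC1 against PAR, 4 rose and 2 fell in SRC3 against PAR, and 0 rose and 8 fell in SRC3 against FRC1. At least Mb, Myh1, Myh4, Myh8 and Cacna1s passed the filter on low counts only through their FRC1 libraries. For these a difference from FRC1 was built into being tested. Slow myosin Myh7 had 45 counts in SRC3, 440 in FRC1 and 1 in PAR, whereas Ttn, which encodes titin, averaged 34.3 ± 3.61 CPM in SRC3, 33.2 ± 3.8 CPM in FRC1 and 33.4 ± 5.44 CPM in PAR (SD, n = 3 each). The 4 markers that rose in SRC3 against PAR were Myh7, Mb, Myh1 and Myh3. Ryr1, among the 2 that fell, averaged 7.54 ± 1.17 CPM in SRC3, 15.9 ± 2.1 CPM in FRC1 and 20.6 ± 2.25 CPM in PAR.

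The 8 cardiomyocyte markers summed to 6.31 to 7.02 CPM in SRC3, 9.55 to 11 CPM in FRC1 and 7.89 to 8.82 CPM in PAR. Of the 3 that could be tested, 1 rose in FRC1 against PAR, and 1 rose and 1 fell in SRC3 against PAR. Myh6, the alpha myosin heavy chain of the heart, had 11 counts in SRC3, 81 in FRC1 and 2 in PAR (adjusted p = 6.9e-06 in FRC1 against PAR). Nppb, which encodes a natriuretic peptide, had 52 counts in SRC3, 9 in FRC1 and 6 in PAR, and was 8.56-fold higher in SRC3 than in PAR (adjusted p = 0.0004 in edgeR). Myh6 passed the filter on low counts only through its FRC1 libraries and Nppb only through its SRC3 libraries. For both, a difference from that population was built into being tested. Gata4, a factor of the heart and other tissues, averaged 4.95 CPM in SRC3, 8.13 CPM in FRC1 and 7.89 CPM in PAR. Nppa and Nkx2-5 were at 0 in all libraries, and Tnni3, the cardiac troponin I, had 4 counts in SRC3, 4 in FRC1 and 6 in PAR.

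The 9 smooth muscle and pericyte markers summed to 64.5 to 77.1 CPM in SRC3, 361 to 512 CPM in FRC1 and 178 to 209 CPM in PAR. Of the 4 tested, 3 rose in FRC1 against PAR, and 1 rose and 3 fell in SRC3 against PAR. Acta2 and Tagln, a smooth muscle actin-binding protein, made up most of the sum in FRC1 and PAR, and Tagln averaged 6.6 ± 4.14 CPM in SRC3, 217 ± 47.1 CPM in FRC1 and 112 ± 10.7 CPM in PAR (SD, n = 3 each). Cspg4, the proteoglycan NG2 of pericytes, was highest in SRC3 and made up most of the sum there. It averaged 52.3 ± 9.01 CPM in SRC3, 7.82 ± 2.91 CPM in FRC1 and 0.695 ± 0.325 CPM in PAR, and rose 73.8-fold in SRC3 and 11.1-fold in FRC1 against PAR (adjusted p of 1.3e-06 and 0.00088 in edgeR). Other pericyte genes of the list did not share this rise. Notch3 was 2.6-fold lower in SRC3 than in PAR (adjusted p = 0.009 in edgeR). Pdgfrb, Rgs5 and Kcnj8 had 2, 7 and 0 counts in SRC3, too few to test. Myh11 was at 0 in FRC1 and PAR, and Cnn1 at 0 in SRC3. The 7 glial and neural markers summed to 64.5 to 72.2 CPM in SRC3, 25.3 to 52.1 CPM in FRC1 and 12.4 to 14.6 CPM in PAR, highest in SRC3, where 9 of the 10 members were lower than in FRC1. All 3 that could be tested rose in SRC3 against PAR, among them Tubb3, a neuronal tubulin, at 46.1 CPM in SRC3, 38.2 CPM in FRC1 and 11.4 CPM in PAR. Another of the 3, Ngfr, passed the filter on low counts only through its SRC3 libraries. Sox10 and S100b were at 0 in all libraries. Endothelial markers summed to at most 0.56 CPM in any library, immune markers to at most 4.4 CPM and fibro-adipogenic markers to at most 11.8 CPM. The part of these other cell types in the members' levels was not tested.

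The genes whose log2 CPM over the 9 libraries was most like the members' mean profile were Myh3 (Pearson r = 0.993), Mb and Myog (0.992 each), Frem2 (0.992), Ablim3 (0.989), Mybph (0.988), Mylpf and Myl1 (0.986 each). The 9 points form 3 populations that share their libraries, so r describes the differences between the populations and has no p. At least Mb, Frem2 and Ablim3 passed the filter on low counts only through their FRC1 libraries. The members Tnnt1 and Tnnc2, part of the profile, did so too. For all of these a difference from FRC1 was built into being compared. Myh3, the embryonic myosin heavy chain, averaged 3.34 CPM in SRC3, 22.8 CPM in FRC1 and 1.4 CPM in PAR. Mylpf, the fast regulatory light chain, averaged 6.26 CPM in SRC3, 18.9 CPM in FRC1 and 2.5 CPM in PAR. Among the members themselves r with this profile, of which each is a part, ran between 0.823 for Neb, 0.827 for Tnnt2 and 0.992 for Acta1.

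Members that lie side by side in the genome belong to different isoform classes in one case and to the same class in another. Tnni1 and Tnnt2 lie 25.4 kb apart on chromosome 1 with Lad1 between them, and Tnni2 and Tnnt3, both fast, lie 54.4 kb apart on chromosome 7 with Lsp1 between them. Tnnt3 is 59.5 kb from H19, the imprinted noncoding RNA. Lsp1, an actin-binding protein of leukocytes, averaged 28.6 ± 3.37 CPM in SRC3, 60.7 ± 3.7 CPM in FRC1 and 58.1 ± 3.31 CPM in PAR. It was not called in FRC1 against PAR (log2 0.06, adjusted p = 0.57) and fell by 1.02 on the log2 scale in SRC3 against PAR (adjusted p = 3e-09 in edgeR), whereas its neighbours Tnni2 and Tnnt3 rose in FRC1 and were not called in SRC3 against PAR. H19 averaged 151 CPM in SRC3, 710 CPM in FRC1 and 1060 CPM in PAR. Pkp1, a plakophilin next to Tnnt2, averaged 1.73 ± 0.18 CPM in SRC3, 10.9 ± 0.433 CPM in FRC1 and 8.6 ± 0.909 CPM in PAR.

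Over all 10 members there were 18 nearest protein coding neighbours, of which 12 could be tested: 2 rose and 2 fell in FRC1 against PAR, 2 rose and 3 fell in SRC3 against PAR, and 0 rose and 4 fell in SRC3 against FRC1. Those that rose in FRC1 against PAR were Pkp1 and Ppp1r12c (log2 0.34 and 0.31), and those that fell were Arl5a and Phlda3 (log2 -0.23 and -0.27). In SRC3 against PAR Rif1 and Ppp1r12c rose (log2 0.25 and 0.18) and Pkp1, Lsp1 and Phlda3 fell (log2 -2.3, -1.02 and -0.44). In SRC3 against FRC1 Pkp1, Lsp1, Phlda3 and Aqr fell. Ccsap, Nup133, Mrpl23, Dnttip1 and Snx21 were not called in any comparison, and Gjd2, Lad1, Tnni3, Stab1, Sema3g and Syt8 had too few counts to test.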

How the data were processed

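The files hold raw read counts per gene for 9 libraries, which the authors deposited without normalization. Per the submitters' processing notes, HISAT2 2.1.0, HTSeq 0.9.1, DESeq2 and build GRCm38 were used, with settings not given in the sources used here. Summary lines naming no gene were left out. Among uniquely aligned reads, those in no gene made up 5.923 to 7.917% and ambiguous ones 1.175 to 1.214%. Multiply aligned reads had a summary line of their own.

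Groups came from the sample titles. Of 47729 genes, 47224 matched GENCODE M21, which gave locations and exon lengths. Genes reaching 0.734 CPM in 3 libraries were kept with filterByExpr (a count of 10, a total of 15), leaving 12540. All 9 libraries were fitted in 1 model with 6 residual degrees of freedom (edgeR 4.0.16, limma 3.58.1, R 4.3.3, TMM, glmQLFit with robust dispersion, glmQLFTest, two-sided), with a threshold of 0.05 on the Benjamini-Hochberg adjusted p. The pipeline was tested on simulated data. Promoters came from RefSeq on GRCm38.p6. The count ratios have exact 95% intervals.

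Named were all 10 members, up to 4 genes per list with the largest called changes at 1 CPM or more in the higher group, the nearest protein coding neighbours, and the 8 most alike genes (log2 CPM, prior count 2). Other genes given (Myod1, Srf, Actb in FRC1, Ttn, Chrdl2, Pdgfrb, Rgs5, Kcnj8, markers at 0, Tnni3, tropomyosins, H19) were chosen after their values were seen. The members, lists and alternatives were chosen with earlier results of these data known. Alternatives were RLE size factors, library sizes alone, no filter, 1 CPM in 3 libraries, DESeq2 1.42.0, limma voom, the 2 groups alone, a replicate block, other lengths for the shares, and each of the 9 libraries left out in turn.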

Additional observations from a re-analysis of the deposited data

How the results depend on the processing

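Over the 9 omitted libraries and 8 other settings, 495 of the members' log2 fold changes kept their direction and side of the threshold, 2 gained a call, 5 lost one and 6 changed sign. The count of members called was 10 in FRC1 against PAR in each, 9 or 10 in SRC3 against FRC1, and 5 or 6 in SRC3 against PAR. In SRC3 against PAR, with a library left out, Neb ran over -0.09 to 0.42, Tnnt3 over -0.23 to 0.07 and Tnni2 over -0.01 to 0.49, so that their sign turned without PAR replicate 1 (Tnnt3, Tnni2), PAR replicate 2 (Neb, Tnni2), SRC3 replicate 1 (Tnnt3) or SRC3 replicate 3 (Neb). Whether Acta1 and Tnnt1 were called in SRC3 against PAR, and Tnnt2 in SRC3 against FRC1, changed as given beside them. With the 2 groups alone, Tnnt1 and Tnnc2 did not reach the filter in SRC3 against PAR. Genes called in FRC1 against PAR were 3550, and 2327 to 3987 with a library left out (2327 without FRC1 replicate 3). The Actc1 share differed by -11.1 to 1.58 percentage points in SRC3 against PAR with a library left out, against -4.73, and was 1.58 without PAR replicate 3. The causes were not tested. Same-numbered libraries deviated together with r of -0.07 to 0.118. Differently numbered libraries were not correlated, so whether the replicate numbers pair the samples was not tested. A replicate block gave 3560, 4798 and 4221 genes called, against 3550, 4758 and 4199, and 10, 6 and 9 members, in FRC1 against PAR, SRC3 against PAR and SRC3 against FRC1. Depth limits Tnnc2, Tnnt1 and Tnni1 in PAR, at 0 to 9 counts a library.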
